A study of Mus musculus with 3 samples.

Results

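The thrombospondin genes of the mouse molar, Thbs1, Thbs2, Thbs3 and Thbs4, and the related gene Comp were read in single cells that carried the Pthrp-mCherry reporter. These 5 genes were chosen by symbol and joined by gene identifier, out of 21446 genes shared by 3 libraries. Mandibular first and second molars of Pthrp-mCherry knock-in mice were dissociated at postnatal day 15 (P15), at P25 and at 8 weeks, and reporter-positive cells were sorted and profiled with 10x Chromium 3' chemistry. All 3 groups therefore share the knock-in allele at the Pthrp locus and differ in age, and no treatment is named. Cells of several mandibles were pooled into a single library per age, so no age had a replicate and no difference between ages was tested.

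Thrombospondins are secreted glycoproteins that bind calcium, collagens, proteoglycans and cell surface receptors such as CD47 and integrins. Thrombospondin-1 and thrombospondin-2 form trimers and are known for inhibiting angiogenesis through CD36, whereas thrombospondin-3, thrombospondin-4 and Comp (cartilage oligomeric matrix protein) form pentamers and lack the repeats that bind CD36. Thrombospondin-4 and Comp are abundant in tendon, where they associate with collagen fibrils.

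In GRCm38, Thbs1 (ENSMUSG00000040152) lies on the plus strand at chr2:118111876-118127133 and Thbs2 (ENSMUSG00000023885) on the minus strand at chr17:14665500-14694235. Thbs3 (ENSMUSG00000028047) lies on the plus strand at chr3:89215180-89226837, within the span of Mtx1 on the opposite strand (chr3:89209081-89227088), and its counts are uncertain because the sources used here do not say whether strand was used in counting. Thbs4 (ENSMUSG00000021702) lies on the minus strand at chr13:92751590-92794818 and Comp (ENSMUSG00000031849) on the plus strand at chr8:70373558-70382066. The longest transcripts have 22 exons in Thbs1, Thbs2 and Thbs4, 21 in Thbs3 and 19 in Comp. A short gene on the opposite strand, Gm29233, overlaps Thbs1.

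Among the members with a promoter in the RefSeq table of GRCm38.p6 (3 of 5), Thbs4 and Thbs2 are printed because in Hand2-gated cells Thbs4 was lower than in any gate but Krt14 and Ptprc, and Thbs2 was at its highest. Hand2 is a basic helix-loop-helix transcription factor, a class known to bind the E-box CANNTG. Each sequence runs from 250 bases before to 50 bases after the RefSeq start of the gene (chr13:92794769-92795068 and chr17:14694213-14694512, both minus strand), and capitals mark CANNTG. The RefSeq start of Thbs4 is that of the gene span above, and that of Thbs2, at 14694262, lies 27 bases upstream of it.
Thbs4: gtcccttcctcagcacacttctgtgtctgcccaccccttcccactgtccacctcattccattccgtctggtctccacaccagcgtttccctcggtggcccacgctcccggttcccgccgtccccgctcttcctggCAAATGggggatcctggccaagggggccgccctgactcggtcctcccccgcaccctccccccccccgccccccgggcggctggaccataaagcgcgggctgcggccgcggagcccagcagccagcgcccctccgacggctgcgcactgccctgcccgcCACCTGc
Thbs2: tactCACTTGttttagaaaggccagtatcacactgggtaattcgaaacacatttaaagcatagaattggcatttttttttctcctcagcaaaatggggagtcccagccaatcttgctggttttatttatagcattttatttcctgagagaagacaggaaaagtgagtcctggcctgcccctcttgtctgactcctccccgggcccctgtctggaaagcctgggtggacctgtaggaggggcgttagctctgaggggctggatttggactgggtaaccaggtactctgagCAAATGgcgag
The pattern reads the same on both strands, and no other motif was searched. Both promoters held 2 matches, at positions -115 and 43 from the RefSeq start, counted as 0, in Thbs4 and at -246 and 39 in Thbs2. Of 32851 promoters of this length, 72.3% held at least 1 match and 39.6% held 2 or more, so 2 matches are common and describe these letters only.

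The P15, P25 and 8-week libraries held 12926, 8971 and 5192 cells, with 187645941, 161563953 and 46147021 unique molecular identifiers (UMIs) in shared genes and a median of 14253.5, 15834 and 8712.5 UMIs per cell. The P25 file header gives Cell Ranger 6.0.1, whereas the processing notes give 6.1.2 for all libraries. The P25 feature list was also longer (32293 against 22056 features), and the sources used here do not say why. Neither can be told apart from the age. Pairs of libraries shared 13 to 26 cell barcodes. Of the reporter-sorted cells, 1052, 778 and 94 held at least 20 UMIs of the keratin gene Krt14 and passed its gate. Another 795, 200 and 19 cells held at least 2 UMIs of Ptprc, which encodes the leukocyte antigen CD45, and passed that gate.

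Cells were gated on their UMIs of single genes. Ibsp (at least 20 UMIs) encodes bone sialoprotein, a product of cementoblasts and osteoblasts, and Ifitm5 (at least 3) an osteoblast membrane protein. Hand2 (at least 2), Rgs5 (at least 5), a gene of mural cells, and Pappa2 (at least 2), a protease gene, gave the other gates besides Krt14 and Ptprc. Ibsp-gated cells without Hand2 (0 Hand2 UMIs, under 3 Ifitm5 UMIs) numbered 1198, 676 and 364 by age. Those with Hand2, also under 3 Ifitm5 UMIs, numbered 43, 813 and 591. Neither Ibsp gate was limited by Pappa2 UMIs. The Ifitm5 gate, taken whatever the Ibsp, Hand2 or Pappa2 UMIs of a cell, held 644, 819 and 270 cells. The Hand2 gate held 212, 323 and 228, the Rgs5 gate 230, 33 and 42, and the Pappa2 gate 601, 34 and 13. Cells of the Hand2 and Pappa2 gates were below the Ibsp and Ifitm5 thresholds and below the threshold of the other gate. Between 55.3% and 64.3% of the cells passed no gate. Cells positive in more than 1 of the Krt14, Ptprc, Rgs5 and mesenchymal (Ibsp, Ifitm5, Hand2 or Pappa2) sets (184, 104 and 15) were left out.

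The gates were set against markers that had not defined them. All 4 epithelial markers peaked in the Krt14 gate and all 6 immune markers in the Ptprc gate at every age, and 5, 5 and 4 of 5 markers in the Ifitm5 gate. Of the 4 markers of the Hand2 gate, 2, 4 and 4 peaked there. All 5 mural markers peaked in the Rgs5 gate at P15, but 3 of 5 at P25 and 1 of 5 at 8 weeks, when Notch3, a receptor of mural cells, was at 5.89 CPM (UMIs of the gene per 1000000 UMIs of the gate) against 460 CPM at P15. The Pappa2 gate likewise held 3 of 3 markers at P15 and 1 of 3 at P25. Ibsp-gated cells without Hand2 held only 2, 1 and 2 of 5 cementoblast markers at their highest level, the rest being higher in other gates. All gates are therefore called by their gene.

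UMIs were summed per library and gate and divided by the total of the sum, giving CPM with exact 95% Poisson intervals that cover counting error only. Tests used edgeR's quasi-likelihood test on these sums, with Benjamini-Hochberg adjustment over all genes tested, and the 3 ages stood in as replicates, so that a p-value measures the spread between these 3 libraries. Sums of fewer than 20 cells were not tested. Where 3 values follow each other, they stand in the order of age, P15, P25 and 8 weeks. Since 3' UMIs are not counted per length, no level is compared between members.

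Thbs4, the pentameric member best known from tendon and muscle, differed in summed level between Ibsp-gated cells with and without Hand2. In Ibsp-gated cells without Hand2 it reached 2355 (2334 to 2377), 1583 (1560 to 1608) and 1944 (1895 to 1993) CPM by age. Ibsp-gated cells with Hand2 held 375 (336 to 419), 155 (148 to 162) and 207 (196 to 218) CPM. The groups did not overlap, since the highest sum with Hand2 lay far below the lowest sum without it. The log2 fold change was -3.03 ± 0.34 (SE, 3 against 3 sums), a fold of 0.122, with an adjusted p of 0.00968 by edgeR's quasi-likelihood test, Benjamini-Hochberg adjusted. Thbs4 was the sole member called of the 4 that were tested, against 2.41% of 11759 genes called in either direction and 1.82% called lower.

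The call was lost without the P25 or the 8-week library. Without P25 the log2 fold change was -2.90 with an adjusted p of 0.0545, and without 8 weeks -2.93 with 0.223, whereas without P15 it was -3.32 with 0.0135 (edgeR, 2 sums per gate). The sums of a library come from the same pooled cells, and with the library as a replicate block Thbs4 stayed called at -3.11 (0.000858). Under that block Thbs3 (-1.29, 0.00623) and Thbs2 (-0.50, 0.00791) were called lower too, making 3 of 4 members, while 10.9% of all genes were called.

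The median depths of both Ibsp gates were close within each library, whereas other gates differed more. With each cell thinned to 3000 UMIs, a Thbs4 UMI was found in 79.0%, 52.4% and 54.5% of Ibsp-gated cells without Hand2, at median depths of 15030.5, 13301.5 and 8533.5 UMIs. With Hand2 the shares were 37.2%, 16.0% and 27.2%, at median depths of 16876, 13923 and 9998 UMIs. Ptprc-gated cells, taken as the background of free RNA, had 15.7% at P15 and 11.1% at P25 (median depths 10437 and 15148.5), and Krt14-gated cells 11.4%, 5.31% and 16.1%. Unthinned, the shares were 92.9%, 67.2% and 69.2% without Hand2 and 67.4%, 38.6% and 58.7% with it.

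The step lay between 0 and 1 Hand2 UMI. At P25 the level of Thbs4 in Ibsp-positive cells went from 1583 CPM with 0 Hand2 UMIs to 158 CPM with 1, 172 CPM with 2, 191 CPM with 3 or 4 and 104 CPM with 5 or more. At 8 weeks the corresponding levels were 1944, 261, 179, 239 and 195 CPM. At P15 few Ibsp-positive cells carried Hand2. The 18 cells with 1 Hand2 UMI held 588 CPM (506 to 680) and the 28 cells with 5 or more held 425 CPM. The 1198 cells without any held 2355 CPM. Past the first UMI, the order among the remaining Hand2 classes was not the same at P25 and 8 weeks.

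**Figure D1:**
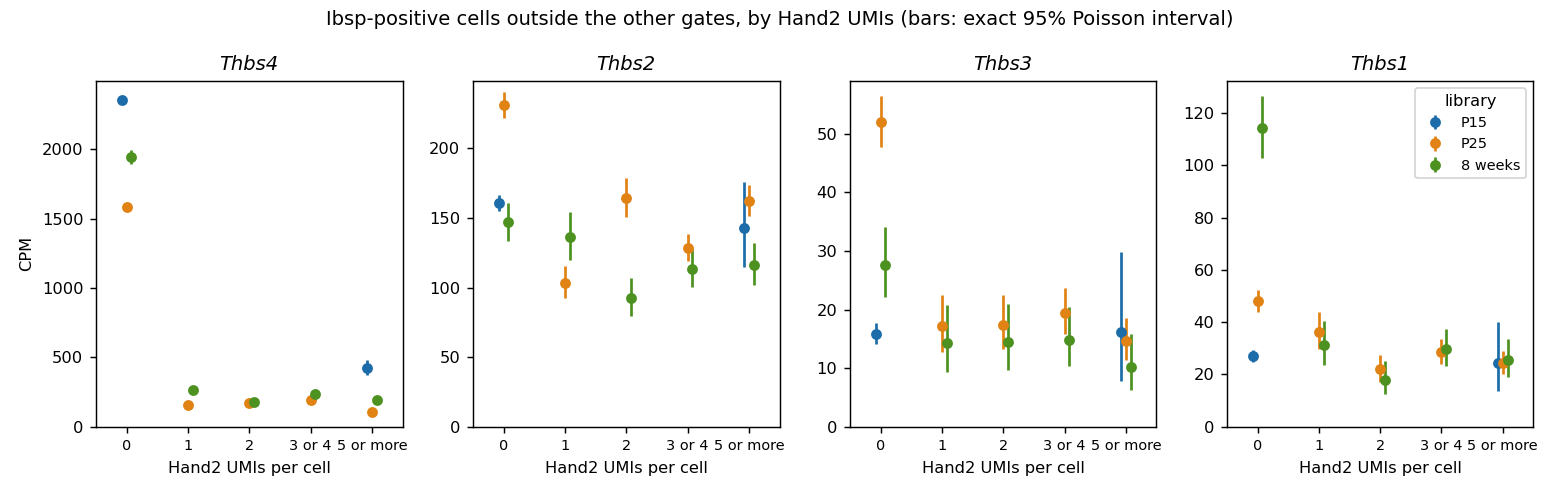
Level (CPM, linear axis from 0) of Thbs4, Thbs2, Thbs3 and Thbs1 in Ibsp-positive cells outside the other gates, by Hand2 UMIs per cell, for classes of at least 20 cells; points are libraries and bars exact 95% Poisson intervals. Thbs4 lies between 1583 and 2355 CPM at 0 Hand2 UMIs and at or below 425 CPM in every other class.

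The level varied widely from cell to cell within the gate. The median Ibsp-gated cell without Hand2 held 26, 3.5 and 1 UMIs of Thbs4, whereas the cell at the 90th percentile held 95, 83.5 and 55. With Hand2 the median cell held 1, 0 and 1 UMIs and the cell at the 90th percentile 9, 4 and 4. At 8 weeks both medians were thus 1 UMI, and the gates differed at the 90th percentile. The amount of Ibsp went with the level of Thbs4 in part. Among cells with 0 Hand2 UMIs at P15, Thbs4 was at 450.0 CPM with 0 Ibsp UMIs, 526 CPM with 1 to 4, 1609 CPM with 5 to 19, 2066 CPM with 20 to 99 and 2524 CPM with 100 or more. At P25 it stayed between 565 and 700.1 CPM up to 99 Ibsp UMIs and was 2278 CPM with 100 or more. At 8 weeks cells without Ibsp already held 1666 CPM, cells with 5 to 19 UMIs held 889 CPM, and cells with 100 or more held 2432 CPM.

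Hand2-gated cells, with under 20 Ibsp UMIs each, held Thbs4 near the level of the whole Ptprc gate at P15 and P25. They were above Krt14-gated cells at every age. Their levels of 116 CPM (106 to 127) at P15 and 112 CPM (104 to 121) at P25 had intervals that overlapped those of Ptprc-gated cells, at 109 CPM (103 to 116) and 101 CPM (91.0 to 112). At P25, however, 1 cell held 110 of the 351 Thbs4 UMIs of the Ptprc gate. The 154 cells of that gate with at least 2 Csf1r UMIs, under 10 of S100a8 and under 2 of Cd79a held 72.3 CPM (62.9 to 82.7), below the Hand2 gate. At 8 weeks Hand2-gated cells held 173 CPM (158 to 190). Krt14-gated cells held 70.0 (66.4 to 73.8), 37.8 (35.4 to 40.3) and 37.8 (29.4 to 47.9) CPM.

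In the Ifitm5 gate Thbs4 was at 1194, 601 and 2346 CPM by age, below Ibsp-gated cells without Hand2 at P15 and P25 and above them at 8 weeks. The log2 ratio of Ibsp-gated cells without Hand2 to the Ifitm5 gate was accordingly 0.98 at P15, 1.40 at P25 and -0.27 at 8 weeks, each with a counting interval that held no 0. The groups overlapped, and the log2 fold change of 0.34 ± 0.44 had an adjusted p of 0.833 (edgeR's quasi-likelihood test, Benjamini-Hochberg). Within the Ifitm5 gate, Thbs4 divided by Ibsp. Cells with at least 20 Ibsp UMIs (442, 629 and 229 cells) held 1712, 768 and 2787 CPM. Cells with fewer (202, 190 and 41 cells) held 162, 56.6 and 152 CPM. At P25 their 56.6 CPM (50.2 to 63.4) lay below the whole Ptprc gate, and the interval overlapped that of its cells with Csf1r (62.9 to 82.7).

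**Figure D2:**
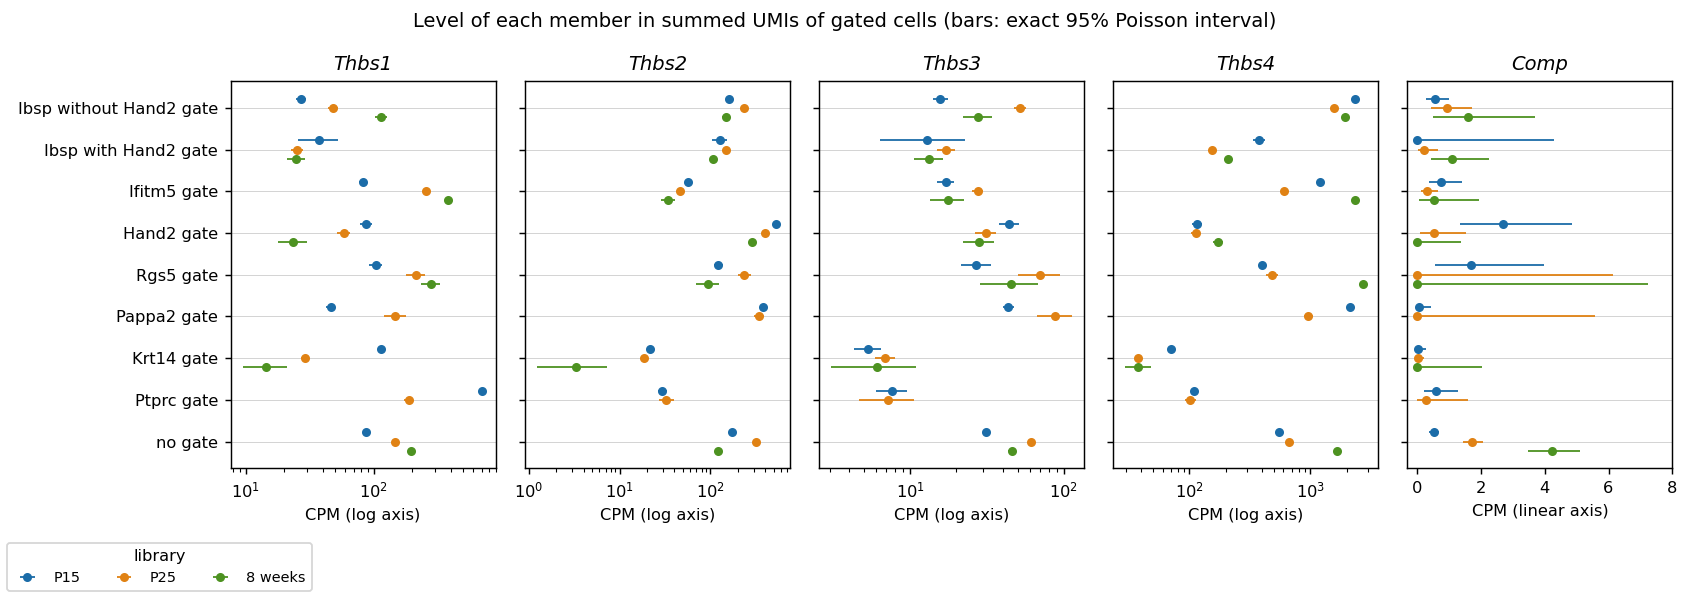
Level of each member in summed UMIs of each gate (CPM, log axis for the thrombospondins and linear axis for Comp); points are libraries, with exact 95% Poisson intervals as bars, and gates under 20 cells are left out. Thbs4 is lowest in the Krt14 gate at every age, Thbs2 highest in the Hand2 gate at every age, and Thbs1 at P15 highest in the Ptprc gate at 709 CPM.

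The Pappa2 gate held Thbs4 at 2129 CPM (2103 to 2154) at P15 and 966 CPM (893 to 1044) at P25, lower than Ibsp-gated cells without Hand2 in both libraries. The log2 fold change of the latter over the Pappa2 gate was 0.34 ± 0.35 with an adjusted p of 0.876 (edgeR, 3 against 2 sums, since 13 cells at 8 weeks were too few). None of the 4 members tested was called in this comparison, against 0.897% of 12490 genes. At an unadjusted p under 0.05 by edgeR there was 1 member, Thbs2, as were 1327 of the 12490 genes. The DESeq2 Wald test called Thbs2 (adjusted p 0.0231) among 3.26% of all genes. With the library as a block, which drops the 8-week sum, Thbs1 (-1.14, adjusted p 0.00885) and Thbs3 (-1.12, 0.0192) were called by edgeR, 2 of 4 members against 3.68% of all genes.

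In Rgs5-gated cells Thbs4 was at 401 (378 to 424), 481 (427 to 540) and 2757 (2615 to 2905) CPM in order of age. All 3 values lay above the Hand2 gate, whose values were given above, and the 8-week sum stood apart from the other Rgs5 sums. The log2 fold change was 3.17 ± 0.82, a fold of 8.98, and missed the threshold with an adjusted p of 0.139 (edgeR's quasi-likelihood test, Benjamini-Hochberg). Without the 8-week library it was 1.86 (0.127), and with lower gate thresholds 2.05 (0.408). Higher gate thresholds, which left 4 of the 6 sums with at least 20 cells, gave 1.00. The 8-week gate had 42 cells with a mean of 6.45 Rgs5 UMIs, against 90.3 at P15, and 1 of 5 mural markers peaked there, against 5 of 5 in the 230 cells at P15. The part of gate make-up in the result was not tested.

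No member was called between the Rgs5 and Hand2 gates, against 1.27% of 10727 genes. By edgeR 3 members had an unadjusted p under 0.05, as had 1534 of the 10727 genes. The DESeq2 Wald test called 3 members, Thbs4 (adjusted p 0.000102), Thbs1 (0.0202) and Thbs2 (0.0119), against 5.34% of all genes by that test. With the library as a block edgeR called 0 members, and 2.1% of all genes.

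**Figure D3:**
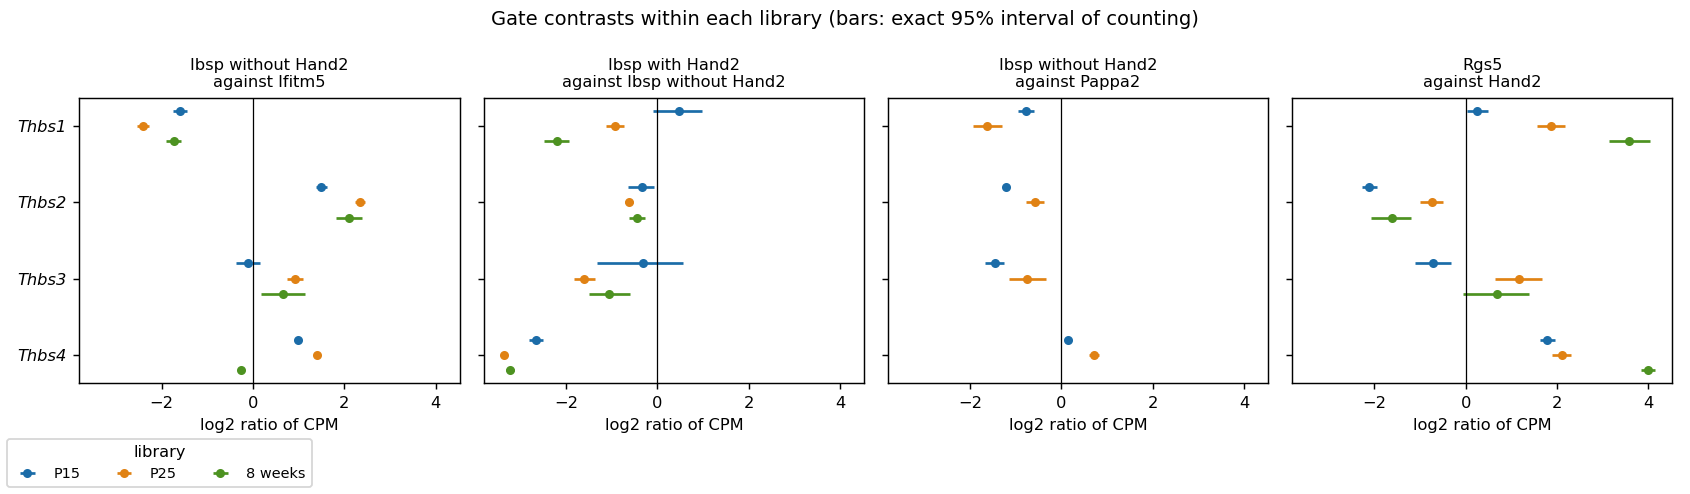
Log2 ratio of CPM between the gates of each comparison, within each library, for the thrombospondins; points are libraries and bars exact 95% intervals of the ratio. Thbs4 is lower in Ibsp-gated cells with Hand2 in all 3 libraries (-2.65, -3.36 and -3.23), Thbs2 is lower in the Ifitm5 gate in all 3, and Thbs4 between Ibsp without Hand2 and Ifitm5 lies on both sides of 0.

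Most Thbs4 UMIs at the later ages lay outside all gates. Ibsp-gated cells without Hand2 held 30.0%, 19.4% and 9.87% of the Thbs4 UMIs of their libraries, and ungated cells 35.2%, 56.4% and 68.7%. Ungated cells held 549.6, 670.2 and 1674 CPM, against 822, 535 and 1346 CPM in all cells. Read by further genes in ungated cells, Thbs4 was at 1159, 1070.0 and 3566 CPM in cells with at least 2 UMIs of Cpz, a carboxypeptidase gene (1057, 1248 and 414 cells), and at 624, 886 and 2443 CPM in cells with at least 20 UMIs of Ogn, which encodes the proteoglycan osteoglycin. Ungated cells with at least 5 UMIs of Mia were lower, at 35.6, 349 and 609 CPM (71, 360 and 185 cells). The 171 ungated cells at P15 with at least 2 UMIs of the endothelial gene Pecam1 held 82.3 CPM (69.5 to 96.9), below the Ptprc background.

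**Figure D4:**
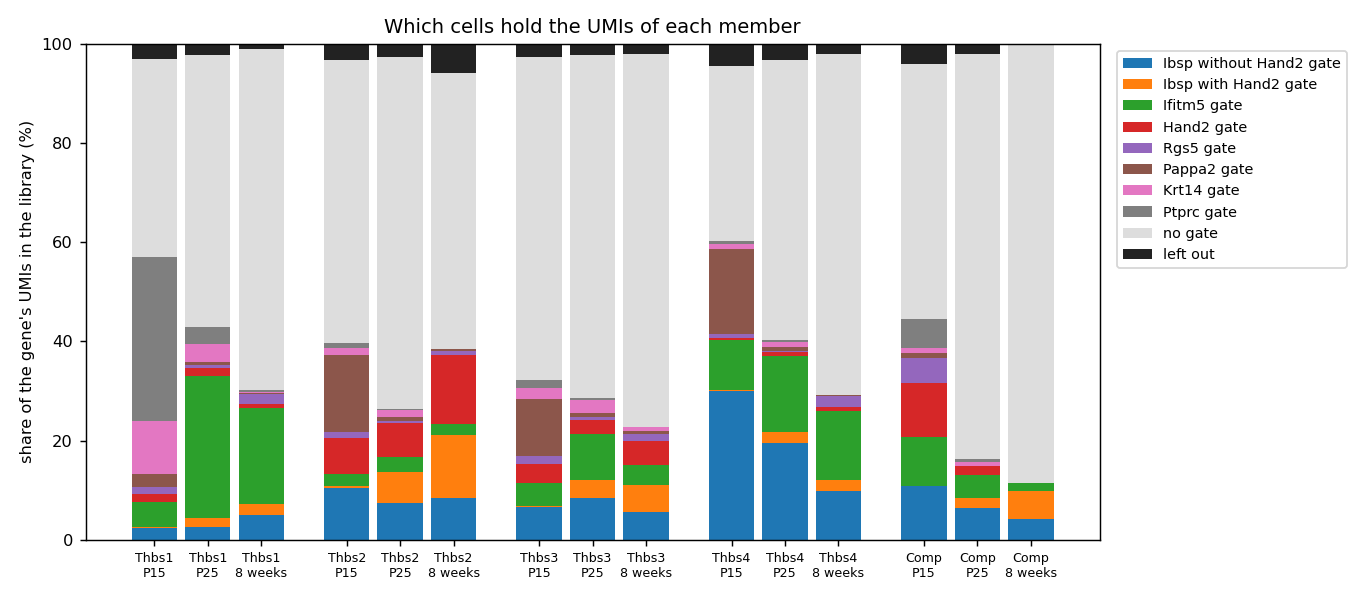
Share of each member's UMIs in a library (percent, stacked to 100) that lies in each gate, in ungated cells and in cells left out. The Ptprc gate holds 33.2% of Thbs1 at P15, and ungated cells hold 68.7% of Thbs4 and 88.5% of Comp at 8 weeks.

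Thbs3, a pentameric member made by many connective tissue cells, was at low levels throughout. Hand2-gated cells held 44.1, 31.0 and 28.0 CPM at P15, P25 and 8 weeks, ungated cells 31.3, 61.6 and 46.1 CPM, and the Pappa2 gate 43.5 and 87.6 CPM at P15 and P25. The lowest values were in the Krt14 gate, at 5.30, 6.88 and 6.12 CPM, and in the Ptprc gate, at 7.62 and 7.21 CPM. Outside these, Ibsp-gated cells with Hand2 had the lowest Thbs3, at 12.8, 17.2 and 13.3 CPM, against 15.8, 52.0 and 27.6 CPM without Hand2. The values of both Ibsp gates overlapped, and the log2 fold change of -1.13 ± 0.48 had an adjusted p of 0.362 (edgeR's quasi-likelihood test, Benjamini-Hochberg), the blocked call having been given above.

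Against the Ifitm5 gate (17.0, 27.6 and 17.6 CPM), Thbs3 in Ibsp-gated cells without Hand2 had a log2 fold change of 0.41 ± 0.51 and an adjusted p of 0.823 by edgeR with Benjamini-Hochberg adjustment. Between the Rgs5 and Hand2 gates its log2 ratio was -0.71, 1.17 and 0.69 by age, and the fitted value of 0.35 ± 0.39 had an adjusted p of 0.765. The P25 ratio counts 42 Thbs3 UMIs in 33 cells of the Rgs5 gate. With a UMI in 4.36% to 12.2% of thinned Ibsp-gated cells without Hand2 and in 0.503% to 2.18% of thinned Ptprc-gated cells, Thbs3 was above background in those gates, but most cells held no Thbs3 UMI.

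Comp, the cartilage and tendon member, was close to undetected. The whole libraries held 101, 154 and 122 Comp UMIs, or 0.538, 0.953 and 2.64 CPM, and 70, 82 and 57 cells had a UMI. It did not pass the low-count filter in any of the 4 comparisons. Ungated cells held 51.5%, 81.8% and 88.5% of its UMIs, with levels of 0.526 CPM (0.393 to 0.690), 1.73 CPM (1.44 to 2.06) and 4.24 CPM (3.48 to 5.12). At 8 weeks 34 of the 2462 ungated cells that also lacked the further genes held 88 of the 122 UMIs. No Comp UMI was found in the 228 Hand2-gated cells at 8 weeks (median depth 11337 UMIs), which allows a share of cells with a UMI of up to 1.32%. At P15 11 UMIs lay in 4 of 212 Hand2-gated cells (median depth 18082 UMIs), and at these depths no difference between the ages is read.

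Thbs2, a trimeric member that fibroblasts secrete and whose loss in mice disturbs collagen fibrils, peaked in the Hand2 gate at every age. The gate held 529 (507 to 551), 395 (379 to 411) and 288 (267 to 309) CPM in order of age. The Pappa2 gate came next, at 374 and 344 CPM at P15 and P25, its interval overlapping that of the Hand2 gate at P25. Ibsp-gated cells without Hand2 held 161, 231 and 147 CPM and those with Hand2 127, 149.8 and 108 CPM. Background was 29.5 and 32.6 CPM in the Ptprc gate and 21.8, 18.6 and 3.34 CPM in the Krt14 gate.

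Thbs2 was the member called between Ibsp-gated cells without Hand2 and Ifitm5-gated cells. The Ifitm5 gate held 57.0 (53.0 to 61.3), 45.8 (43.0 to 48.7) and 34.3 (28.6 to 40.8) CPM in the libraries by age, and no sum of this gate reached a sum of the Ibsp gate without Hand2. The log2 fold change was 1.81 ± 0.25, 3.50-fold higher in Ibsp-gated cells without Hand2, with an adjusted p of 0.0247 (edgeR's quasi-likelihood test, Benjamini-Hochberg). It was 1 of 4 members called, where 1.61% of 12126 genes were called and 0.792% were called higher. Thinned shares were 28.2%, 30.7% and 18.6% of Ibsp-gated cells without Hand2 against 12.5%, 9.98% and 9.81% of Ifitm5-gated cells, at median depths of 17843, 23024 and 12456.5 UMIs in the latter, and 5.05% and 3.52% of Ptprc-gated cells.

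This call was lost without any 1 of the libraries. Leaving out P15, P25 or 8 weeks gave log2 fold changes of 1.99, 1.62 and 1.79 with adjusted p of 0.0726, 0.223 and 0.174 (edgeR, 2 sums per gate). Against Ifitm5-gated cells with at least 20 Ibsp UMIs it was 1.68 with 0.0532. With the library as a block Thbs2 was called at 1.79 (0.000482), and Thbs1 was called at -2.10 (0.0109), 2 of 4 members against 13.9% of all genes. The Ifitm5 gate also held Dspp, an odontoblast gene, at 29.3 CPM at P15 and 34.1 CPM at P25, but at 0 CPM at 8 weeks. Ibsp-gated cells without Hand2 held 0.203, 0.189 and 0 CPM, and the Hand2 gate 25.4 CPM at P25. The part of cells with Dspp in the result was not tested.

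Between the Rgs5 and Hand2 gates Thbs2 did not pass the test. Rgs5-gated cells held 122, 236 and 94.2 CPM, all below the Hand2 gate, with a log2 fold change of -1.46 ± 0.40 and an adjusted p of 0.135 (edgeR's quasi-likelihood test, Benjamini-Hochberg). Ibsp-gated cells without Hand2 were below the Pappa2 gate at -0.98 ± 0.25 (adjusted p 0.187), and all 3 Ibsp sums lay below both Pappa2 sums. Among ungated cells, those with at least 5 UMIs of Mmp3, a stromelysin gene, held 750.4 CPM (680.3 to 826) at P15 in 41 cells and 131 CPM (94.5 to 176) at 8 weeks in 24 cells. Cells with Cpz held 335, 331 and 181 CPM. Ungated cells as a whole held 57.1%, 71.0% and 55.7% of the Thbs2 UMIs of their libraries. Their level was 174, 319 and 119 CPM against 161, 202 and 119 CPM in all cells, so it was close to the whole library at P15 and 8 weeks.

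Thbs1, the trimeric member that activates latent transforming growth factor-β and binds CD47, had its highest level at P15 in the Ptprc gate. This gate held 709 CPM (692 to 725) there, 33.2% of the library's Thbs1 UMIs in 795 of 12926 cells. Its cells were divided by at least 10 UMIs of S100a8, a gene of neutrophils, or at least 2 UMIs of Csf1r or Cd79a. Each class held cells positive for only 1 of these genes. The 369 cells with S100a8 held 1386 CPM (1349.7 to 1423), and 90.2% of them had a Thbs1 UMI at a median depth of 7080 UMIs. The 33 cells positive for more than 1 held 1200 CPM (1108 to 1297). Cells with Csf1r, the receptor gene of macrophages, held 219 CPM in 268 cells, and cells with Cd79a, a B cell gene, 20.2 CPM (10.4 to 35.3) in 59 cells, with a UMI in 11.9% at a median depth of 5073 UMIs. At P25 the Ptprc gate held 188 CPM, and its Csf1r-positive cells held 119.9 CPM. Only 12 of its cells were positive for S100a8 and not Csf1r or Cd79a, and these held 1625 CPM (1428 to 1842), with a Thbs1 UMI in 11 of them.

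Outside the Ptprc gate, the Ifitm5 gate held the most Thbs1 at P25 and 8 weeks, at 255 CPM (248 to 262) and 381 CPM (361 to 401), after 82.0 CPM (77.2 to 87.1) at P15. Its interval at P25 overlapped that of the Rgs5 gate (213 CPM). Ibsp-gated cells without Hand2 held 26.9, 48.0 and 114 CPM, and were below the Ifitm5 gate within every library, with log2 ratios of -1.61, -2.41 and -1.74. Across ages the groups overlapped, and the log2 fold change of -2.18 ± 0.78 had an adjusted p of 0.293 by edgeR with Benjamini-Hochberg adjustment. The call with the library as a block is given above.

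Thbs1 and Thbs4 were unevenly spread over cells of the Ifitm5 gate. Cells with under 20 Ibsp UMIs held 71.6, 557 and 738 CPM of Thbs1, and cells with more Ibsp 87.2, 163 and 309 CPM. After thinning, a Thbs4 UMI was found in 24.1%, 15.2% and 33.3% of the Ifitm5-gated cells that held a Thbs1 UMI (58, 223 and 93 cells) and in 61.6%, 35.0% and 74.4% of those that did not. In ungated cells at P25 the shares were 45.9% and 45.8%. These shares describe cells of the same libraries and were not tested.

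**Figure D5:**
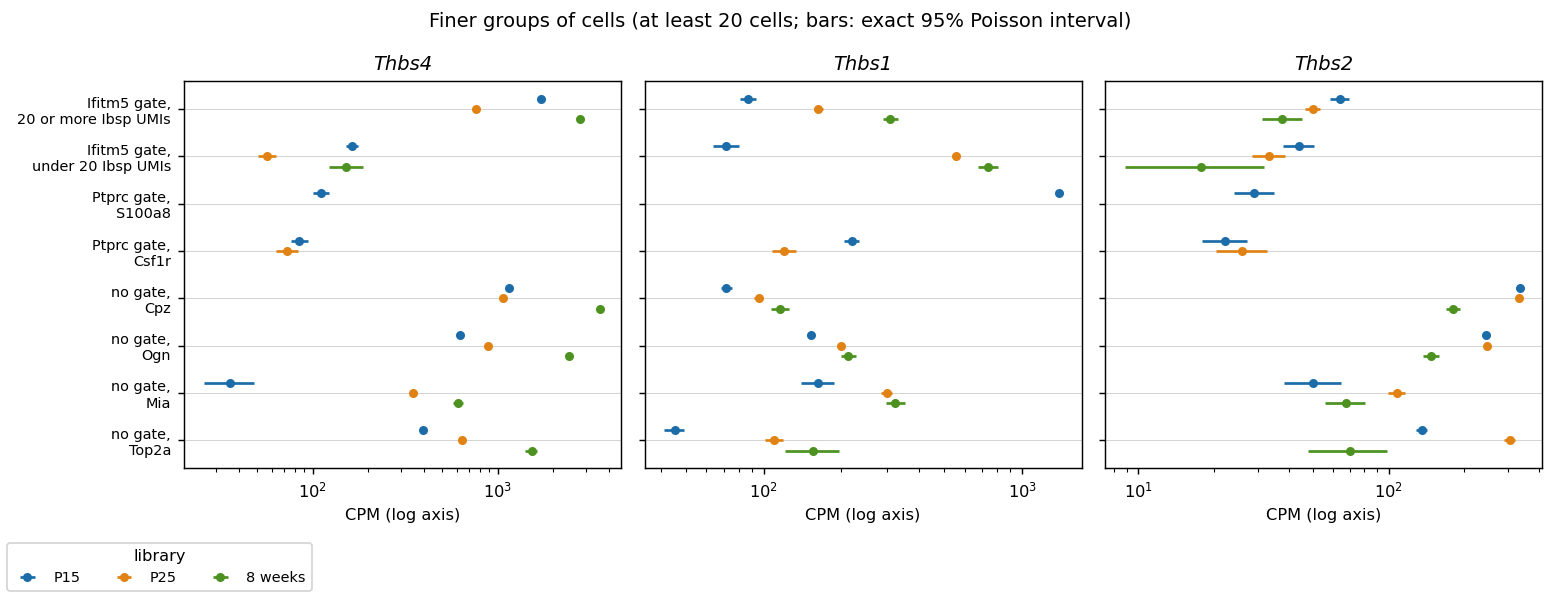
Level (CPM, log axis) of Thbs4, Thbs1 and Thbs2 in subgroups of at least 20 cells of the Ifitm5 gate, the Ptprc gate and ungated cells; points are libraries and bars exact 95% Poisson intervals. In the Ifitm5 gate Thbs4 lies between 768 and 2787 CPM with at least 20 Ibsp UMIs and between 56.6 and 162 CPM with fewer, and S100a8-positive cells hold the highest Thbs1.

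Hand2-gated cells held Thbs1 at 87.1, 58.2 and 23.5 CPM and Rgs5-gated cells at 104, 213 and 279 CPM. All 3 Rgs5 sums were above the Hand2 sums, and the log2 fold change of 1.75 ± 0.56 had an adjusted p of 0.211 (edgeR's quasi-likelihood test, Benjamini-Hochberg). Without P15 it was 2.55 with 0.0436, and without 8 weeks 1.04 with 0.552. With higher gate thresholds, where 4 of the 6 sums remained, it was 0.74. Ibsp-gated cells with Hand2 held 37.2, 25.3 and 24.9 CPM, at -1.15 ± 0.56 against those without (adjusted p 0.446; -0.34 with 0.915 without the 8-week library), with the P15 library in the other direction within counting error (log2 ratio 0.47, from -0.10 to 0.98). Krt14-gated cells went from 115 CPM at P15 to 29.3 and 14.5 CPM. Ungated cells with Mia held 162, 299 and 323 CPM.

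By age, cells outside the Krt14 and Ptprc gates held Thbs1 at 75.2, 138 and 164 CPM, a log2 ratio of 8 weeks to P15 of 1.12 (1.08 to 1.17). Thbs4 was at 951, 643 and 1395 CPM (log2 ratio 0.55, from 0.54 to 0.57) and Thbs3 at 29.2, 48.2 and 35.2 CPM (0.27, from 0.19 to 0.35). Thbs2 was at 188, 246 and 124 CPM, with a ratio of -0.60 (-0.65 to -0.56). Comp had the largest ratio, 2.22 (1.82 to 2.63), at levels from 0.595 to 2.78 CPM. These are values of single libraries, and age cannot be told apart from library.

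The same ratios were read within gates, also with no test. Thbs1 at 8 weeks was 4.24-fold (3.70 to 4.85 by counting) its P15 level in Ibsp-gated cells without Hand2. Within this gate, cells with 20 to 99 Ibsp UMIs held 34.3 CPM at P15 and 204 CPM at 8 weeks. Cells with 100 or more held 22.7 and 55.2 CPM. Of the gate's cells, 20.9% at P15 and 20.3% at 8 weeks had a Thbs1 UMI, at median depths of 15030.5 and 8533.5 UMIs. The ratio of Thbs1 was 4.65-fold in the Ifitm5 gate, but 0.269-fold in the Hand2 gate. Thbs4 was 6.88-fold in the Rgs5 gate and 3.05-fold in ungated cells, but 0.825-fold in Ibsp-gated cells without Hand2. For Thbs2 the ratio was below 1 in the Ifitm5 gate (0.601), the Hand2 gate (0.544) and ungated cells (0.687). Fos, Jun, Egr1 and Atf3, immediate early genes that also respond to dissociation, were read as a summed level. This was 7684, 10196 and 16758 CPM in ungated cells and 6669, 6302 and 7785 CPM in the Ifitm5 gate. In Ibsp-gated cells without Hand2 it was 7831, 7043 and 7184 CPM. It was 9284, 12819 and 18058 CPM in the Rgs5 gate and 5094, 6276 and 6021 CPM in the Hand2 gate. Its part in the Thbs1 values was not tested.

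Receptors of the family were read through a list of 14 genes, of which 11 to 13 were tested per comparison. Itgb5, the integrin β5 subunit, was higher in Ibsp-gated cells without Hand2 than in the Ifitm5 gate (log2 fold change 1.25 ± 0.21, adjusted p 0.0355 by edgeR with Benjamini-Hochberg adjustment), at a mean of 251 against 105 CPM. It was 1 of 13 tested, against 1.61% of all genes, and was not called without P15, P25 or 8 weeks (adjusted p 0.0754, 0.400 and 0.144). The median of the list was 0.18 against 0.01 over all genes. In the other comparisons 0 receptors were called by edgeR, with 1, 4 and 2 at an unadjusted p under 0.05 and 0 by DESeq2 in each. Over all genes, 1690 of 11759, 1327 of 12490 and 1534 of 10727 had an unadjusted p under 0.05 by edgeR. With the library as a block 3, 2, 0 and 0 receptors were called in the order of the comparisons above, Ibsp without Hand2 against Ifitm5 first and then both Ibsp gates, Pappa2 and Rgs5, against 13.9%, 10.9%, 3.68% and 2.1% of all genes. Cd36 was below the count filter in every comparison.

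Matrix partners, 17 collagens, matrilins and other genes of proteins that bind thrombospondins or share their fibrils, were read the same way. With Hand2, 6 of 16 tested were lower and 0 higher, against 2.41% called over all genes, and their median log2 fold change was -0.95 against 0.01. Acan, the gene of the proteoglycan aggrecan, had -2.79 ± 0.34 (adjusted p 0.0104) and Lox, the collagen cross-linking enzyme, -2.59 ± 0.27 (0.00665) by edgeR's quasi-likelihood test, Benjamini-Hochberg adjusted. Ltbp1, which tethers latent transforming growth factor-β, had -2.19 ± 0.37 (0.0390) and Fn1, fibronectin, -2.01 ± 0.32 (0.0281). Col1a1 and Col1a2, the type I collagen genes, were the other 2, at -0.99 and -0.92, and are named after their values were seen. Without P15, P25 or 8 weeks 2, 1 and 0 of the partners were called, and among those named Lox alone was called without P25 (0.0446) and none without 8 weeks (0.0517 to 0.386). The block called 9 partners against 10.9% of all genes, and DESeq2 9 against 4.41%.

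Against the Ifitm5 gate, Col12a1, a fibril-associated collagen of ligaments, was higher in Ibsp-gated cells without Hand2 at 1.06 ± 0.13 (adjusted p 0.0156, edgeR), 1 of 16 tested against 1.61% of all genes. It was lower in Rgs5-gated than in Hand2-gated cells at -2.16 ± 0.30 (0.0199), together with Tgfb1 at -1.25 ± 0.22 (0.0451), 2 of 15 tested against 1.27%. Without P25 or 8 weeks neither Col12a1 call nor the Tgfb1 call was kept (adjusted p 0.163 to 0.519), and without P15 Col12a1 against Ifitm5 was at 0.0518. Between Ibsp-gated cells without Hand2 and the Pappa2 gate 0 of 16 partners were called by edgeR, and 1 by DESeq2 against 3.26% of all genes. At an unadjusted p under 0.05 by edgeR there were 2 partners, as were 1327 of 12490 genes. With the library as a block 4 partners were called against Ifitm5 and 3 against Pappa2, where 13.9% and 3.68% of all genes were.

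The genes whose pattern was most like each member's were found over 25 sums of a library and gate, among 5988 genes with at least 50 CPM in a sum, by Pearson's r of log2(CPM + 10). These sums share libraries, and the values are a description. Thbs4 was most like Ptgis, the prostacyclin synthase gene (0.93), Vasn (0.90) and Gadd45g (0.88). Thbs2 was most like Itm2a (0.93), Col3a1, the type III collagen gene (0.92), and Col16a1 (0.92). Thbs3 was most like Oat (0.93), Gpx3 (0.92) and Fkbp9 (0.90). For Thbs1 the values were lower, with St3gal5 (0.82), Tiparp (0.80) and Cited2 (0.80), and for Comp lower again, with Prg4, which encodes lubricin (0.66), Pcolce2 (0.60) and Uap1 (0.60). The highest Comp level, 4.24 CPM in ungated cells at 8 weeks, was below the 10 CPM added. Prg4, Pcolce2 and Uap1 were all highest in that same sum, so their likeness to Comp rests on values near the floor. Between members, Thbs2 and Thbs3 had 0.79, Thbs3 and Thbs4 0.56, and Thbs1 and Thbs2 -0.13.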

How the data were processed

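For each of the 3 libraries the authors deposited UMI counts per gene and cell from Cell Ranger, whole numbers without normalization. The submitters' processing notes give Cell Ranger 6.1.2 and mm10, and the P25 file header gives 6.0.1. The annotation release is not given in the sources used here. Gene positions came from a GENCODE annotation of GRCm38. The 21446 gene identifiers found in all 3 libraries were kept, as were all 27089 cells. Scrublet in scanpy 1.11.5 called 378, 0 and 9 doublets, so the automatic call failed at P25 and 8 weeks, and leaving out the 6% of cells with the highest scores was an alternative. The 5 members, the gates, the lists of receptors (14 genes) and matrix partners (17 genes) and the tests were chosen with earlier results of these data known. Named beyond the members were the 3 genes most like each member and up to 4 called genes with the largest fold per list and comparison. The finer classes by Ibsp and Hand2 UMIs and the division of the Ptprc gate by S100a8, Csf1r and Cd79a were added after the data were seen.

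A cell with exactly 1 Hand2 UMI in the Ibsp gate (18, 219 and 209 cells), or with both Hand2 and Pappa2 (24, 13 and 6), was left out. Sums were tested with edgeR 4.0.16 (TMM, filterByExpr, robust quasi-likelihood test, only the sums of both gates compared, gate genes removed before the Benjamini-Hochberg adjustment, call at an adjusted p under 0.05), with DESeq2 1.42.0 as an alternative. SE is the log2 fold change divided by the square root of F. The labels do not say that sums of a library pair, but they hold cells of the same pool, and their deviations from the gate means correlated across genes at 0.458 to 0.654 for Ibsp without Hand2 and Ifitm5, 0.357 to 0.459 for both Ibsp gates, 0.209 and 0.379 for Pappa2, and 0.138 to 0.317 for Rgs5 and Hand2. The library as a block was therefore printed where it changed a call. Alternatives were lower, higher and depth-scaled gate thresholds, a filter on cells (at least 500 genes, at most 20% mitochondrial UMIs), doublets, size factors, no count filter, the test, the block and each library left out. For thinned shares (3000 UMIs per cell), 1762, 778 and 959 shallower cells were left out. Tested on simulated data, edgeR recovered 96.6% of genes changed by a log2 of 2 and 24.0% of those changed by 1 between Ibsp without Hand2 and Ifitm5 (12015 genes), 95.6% and 41.1% between both Ibsp gates (11668), 72.0% and 7.77% against Pappa2 (12334), and 82.0% and 8.65% between Rgs5 and Hand2 (10534). The simulated sums were independent, with the same dispersion for all genes and no library effect, so these shares may not hold for the data. R 4.3.3, Python 3.11.15, numpy 2.4.6, scipy 1.17.1, pandas 2.3.3 and matplotlib 3.10.9 were used.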

Additional observations from a re-analysis of the deposited data

Results flagged for a closer look

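For 2 of the gate contrasts a member lay on opposite sides of 0 in different libraries, with a counting interval off 0 on each side. Other changes of sign had an interval that held 0 and are not listed. An example is Thbs3 in Ibsp without Hand2 against Ifitm5 (-0.11 at P15, 0.91 at P25). The differences between ages were not tested, since each age had 1 library. Thbs4 in Ibsp-gated cells without Hand2 against the Ifitm5 gate had a log2 ratio of 0.98 at P15 and 1.40 at P25 but -0.27 at 8 weeks. Thbs3 in the Rgs5 gate against the Hand2 gate had -0.71 at P15 but 1.17 at P25 and 0.69 at 8 weeks, where the counting interval reached -0.05. At P25 and 8 weeks the Rgs5 gate held 33 and 42 cells and 3 and 1 of 5 mural markers at their highest level.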

How the results depend on the processing

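Of 196 refits of a member's log2 fold change, 171 kept their direction and side of the threshold, 11 passed it anew, 6 fell short and 8 reversed. The reversed values were of uncalled members. Thbs1 against Pappa2 (main -0.55) became 0.10 with higher thresholds, 1.19 with depth-scaled ones and ran from -1.25 to 0.54 with 1 library left out (0.54 without P25). Thbs4 there (0.34) became -0.32 with depth-scaled thresholds and ran from -0.014 to 0.87 with 1 library left out (-0.014 without P25). Thbs3 in Rgs5 against Hand2 (0.35) became -0.85 with higher thresholds, -0.47 with depth-scaled ones and ran from -0.12 to 0.97 with 1 library left out (-0.12 without P25). Sums under 20 cells dropped out of some of these refits. Depth-scaled thresholds left 4 sums against Pappa2 (5 in the main fit) and 5 for Rgs5 (6 in the main fit). Higher thresholds left 4 sums for Rgs5. The cause of the reversals was not tested. Genes called moved more. For Ibsp without Hand2 against Ifitm5 (195) they were 299 without the highest doublet scores, 654 by DESeq2, 60 with Ibsp also required of Ifitm5-gated cells, an alternative chosen after seeing the data, and 0 to 111 without 1 library (0 without P25 or 8 weeks, with 939 and 1320 genes at an unadjusted p under 0.05 by edgeR). For Ibsp with against without Hand2 (283) they were 144 with lower thresholds, 526 depth-scaled, 518 by DESeq2 and 1 to 76 without 1 library. Against Pappa2 (112) they were 191 without a count filter, 407 by DESeq2 and 5 to 404 without 1 library, where leaving out P15 or P25 left 1 Pappa2 sum, assumed to vary like the others. For Rgs5 against Hand2 (136) they were 29 with lower thresholds, 424 with higher, 66 depth-scaled, 573 by DESeq2 and 0 to 730 without 1 library (0 without P25 or 8 weeks, with 803 and 1133 genes at an unadjusted p under 0.05). Members called in the same order of comparisons (1, 1, 0 and 0) became 0 with Ibsp required of Ifitm5-gated cells, 2 with depth-scaled thresholds between the Ibsp gates, where Thbs2 was called too, 1 against Pappa2 and 3 for Rgs5 by DESeq2, and without 1 library 0 to 0, 0 to 1, 0 to 0 and 0 to 1.

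With the library as a replicate block the pairing gave 1680, 1276, 457 and 225 genes and 2, 3, 2 and 0 members called in the same order, and it changed no other call of a member than those given in the report. The log2 ratio of 8 weeks to P15 moved beyond its counting interval for Thbs1 (1.07 without the highest doublet scores) and Thbs4 (0.57 with higher thresholds, 0.54 with the filter on cells, 0.58 without the highest doublet scores), and 21 of 25 such values did not. The level in the highest gate of each member and library stayed within its interval in 51 of 72 settings. Levels of the other gates were not compared in this way. No test between ages was possible with 1 library each, and Comp, with 101 to 154 UMIs a library, was too sparse for the 4 tests as reported.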
